A study of Saccharomyces cerevisiae with 14 samples.

Results

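ERG6, ERG2, ERG3, ERG5 and ERG4 encode the enzymes that carry out the last 5 conversions of ergosterol synthesis in budding yeast (Saccharomyces cerevisiae), between zymosterol and ergosterol. They were chosen by this place in the pathway, and are 5 of 5315 genes named on both array formats. All 5 exceeded the filter on low signal, as did 4287 genes in all. Transcript levels had been measured on Affymetrix arrays in poly(A)+ RNA from 3 ARV1 mutant samples and 2 control samples, all of mating type a in the W303 background, grown in YEPD to mid-logarithmic phase. On the Ye6100 format, which spreads each sample over 4 chips, were mutant 1 (strain SCY820), mutant 2 (strain SCY840) and control 1/2 (strain SCY328). On the single-chip S98 format were mutant 3 (strain SCY840) and control 3 (strain SCY2004). Mutants 1 and 2 were therefore set against the same control sample. The product of ARV1 is an endoplasmic reticulum membrane protein that has been linked to the transport of sterols and other lipids, and the comparison asks how transcript levels differ in cells deficient in it. The labels name the genotype as ARV1 mutant without stating the lesion, and give the strains as separate isolates of 1 genotype. They do not say whether samples came from separate cultures, and the p-values below therefore measure only the spread among the 5 samples, which may be technical.

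Ergosterol is the main sterol of the yeast plasma membrane and fills the place that cholesterol has in animal cells. The enzymes lie in the endoplasmic reticulum, and several antifungal drugs, such as azoles and morpholines, act on enzymes of this pathway. The mevalonate steps make the isoprene units, the middle steps close the sterol rings and trim them to zymosterol, and the last enzymes add a methyl group to the side chain and place the double bonds that distinguish ergosterol. Cells lacking any of the last enzymes can grow on altered sterols, whereas most earlier enzymes are essential. Transcription of the pathway is raised by the zinc-cluster factors Upc2 and Ecm22 when sterols are scarce.

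Of these genes 3, ERG3, ERG5 and ERG4, had a lower signal in all 3 mutant samples than in the control of the same format. ERG6 was lower in mutants 2 and 3, and ERG2 was lower in mutants 1 and 3. None of the differences passed the test: with limma and Benjamini-Hochberg adjustment over the 4287 tested genes, 0 of the 5 genes were called at an adjusted p under 0.05. That test called 0 genes in all (0%), and 281 genes (6.55%) had an unadjusted p under 0.05, of which 233 were higher and 48 lower in the mutants. None of the 5 genes was among these 281. Over all tested genes 14.6% were lower and 26.2% were higher in all 3 mutants, beside 3 and 0 of the 5 genes.

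The signals are given below in mutant 1, mutant 2 and control 1/2 on Ye6100, and then in mutant 3 and control 3 on S98. The S98 signals were first scaled to a common trimmed mean, since the deposited means differed (250.1 in mutant 3 and 500.3 in control 3). Signals of the formats, and of different genes, come from different probe sets and have no common scale. Each gene was read by 1 probe set per format. These are levels in bulk RNA, in which fewer cells with a transcript and less of it per cell cannot be told apart.

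ERG6 (YML008C) encodes the sterol methyltransferase that adds a methyl group to the side chain of zymosterol and so opens the last stretch of the pathway. Its signal was 610.1 in mutant 1 and 231.7 in mutant 2, against 551.9 in control 1/2. On S98 it was 3071 in mutant 3, against 3776 in control 3. Mutant 1 thus lay slightly above its control and mutants 2 and 3 below theirs, so the directions were mixed. As a share of the control the signals were 111%, 42% and 81.3% for mutants 1, 2 and 3. The fitted log2 change, mutant minus control, was -0.44 ± 0.52 (SE, 3 mutant and 2 control samples), with a 95% interval of -1.73 to 0.84 and an adjusted p of 0.932 (limma).

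ERG2 (YMR202W) encodes the sterol isomerase that shifts a double bond within the ring system. Its signal was 2214 in mutant 1 and 4969 in mutant 2, against 3341 in control 1/2, which lay between the mutants. On S98 it was 3098 in mutant 3, against 3873 in control 3. ERG2 was the member with a higher signal in mutant 2 than in the control, at 149% of it, while mutants 1 and 3 had 66.3% and 80% of their controls. Its fitted log2 change was -0.14 ± 0.46 (95% interval -1.28 to 1.00, limma adjusted p 0.984). The sign of that fitted change was not stable, being 0.01 with quantile normalization and 0.13 without mutant 1.

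ERG3 (YLR056W) encodes the sterol desaturase that introduces a double bond into the ring system, and its loss is a known route to azole resistance. Its signal was 1225 in mutant 1 and 774.1 in mutant 2, against 1871 in control 1/2. On S98 it was 2186 in mutant 3, against 3103 in control 3. All 3 mutants lay below their controls, with 65.5%, 41.4% and 70.5% of the control signal in mutants 1, 2 and 3. The fitted log2 change was -0.75 ± 0.40 (95% interval -1.75 to 0.24), a 1.69-fold lower signal with a limma adjusted p of 0.828. ERG3 had the smallest unadjusted p of the members, 0.111 by limma.

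ERG5 (YMR015C) encodes a cytochrome P450 that desaturates the sterol side chain. Its signal was 78.9 in mutant 1 and 46 in mutant 2, against 79.7 in control 1/2. On S98 it was 253.7 in mutant 3, against 392.8 in control 3. Mutant 1 had 99% of the control signal, which is no clear difference, whereas mutants 2 and 3 had 57.7% and 64.6%. The count of 3 genes lower in all mutants therefore includes ERG5 by a log2 ratio of -0.01 in mutant 1. The fitted log2 change was -0.50 ± 0.38 (95% interval -1.45 to 0.44, limma adjusted p 0.866).

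ERG4 (YGL012W) encodes the sterol reductase that makes ergosterol itself in the final step. Its signal was 374.7 in mutant 1 and 168.8 in mutant 2, against 456 in control 1/2. On S98 it was 954.8 in mutant 3, against 1671 in control 3. All 3 mutants lay below their controls, with 82.2%, 37% and 57.1% of the control signal in mutants 1, 2 and 3. The fitted log2 change was -0.84 ± 0.47 (95% interval -2.0 to 0.33), a 1.79-fold lower signal, with a limma adjusted p of 0.828. ERG4 stood lowest of all 22 pathway genes by fitted change.

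**Figure D1:**
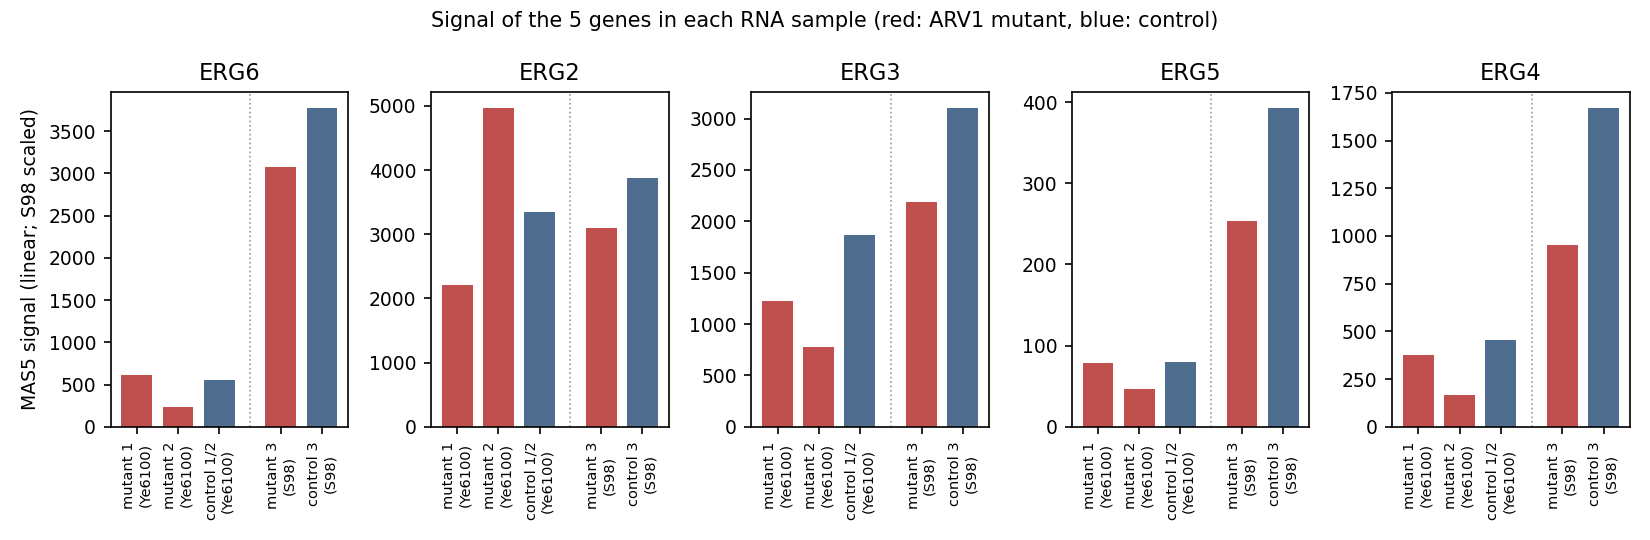
Bars give the linear MAS5 signal of ERG6, ERG2, ERG3, ERG5 and ERG4 in each RNA sample, with ARV1 mutants in red and controls in blue, Ye6100 samples left of the dotted line and scaled S98 samples right of it. The axes start at 0 and differ between genes; ERG2 is highest in mutant 2 (4969), while ERG3 and ERG4 are below the control in each mutant.

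The mutants did not share 1 size of difference. At least 2-fold lower signals were found for 3 members in mutant 2 (ERG6, ERG3 and ERG4) and for 0 in each of mutants 1 and 3. The same fold was passed by 4.08% of tested genes in mutant 1, by 16.8% in mutant 2 and by 1.49% in mutant 3, so mutant 2 also had the most genes that low in the whole table. None of the members was 2-fold higher in any mutant. With 1 sample on each side these counts have no test.

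The members had a median log2 ratio of -0.28 for mutant 1, -1.25 for mutant 2 and -0.51 for mutant 3. Over all tested genes it was 0.24, -0.04 and 0.13. By fitted change the member median was -0.50, against 0.10 over all tested genes. ERG4 had a fitted change below that of all but 2.82% of tested genes, ERG3 below all but 4.15%, ERG5 below all but 10.4%, ERG6 below all but 12.7% and ERG2 below all but 31%. In mutant 3 the share of tested genes with a lower ratio was 3.2% for ERG4, 6.2% for ERG5, 9.84% for ERG3, 18.9% for ERG2 and 20.6% for ERG6. It ranged over 11.4% (ERG3) to 44.8% (ERG6) in mutant 1 and over 8.23% (ERG4) to 75.4% (ERG2) in mutant 2. These ranks describe 5 genes chosen with earlier results of these data known, and have no test.

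**Figure D2:**
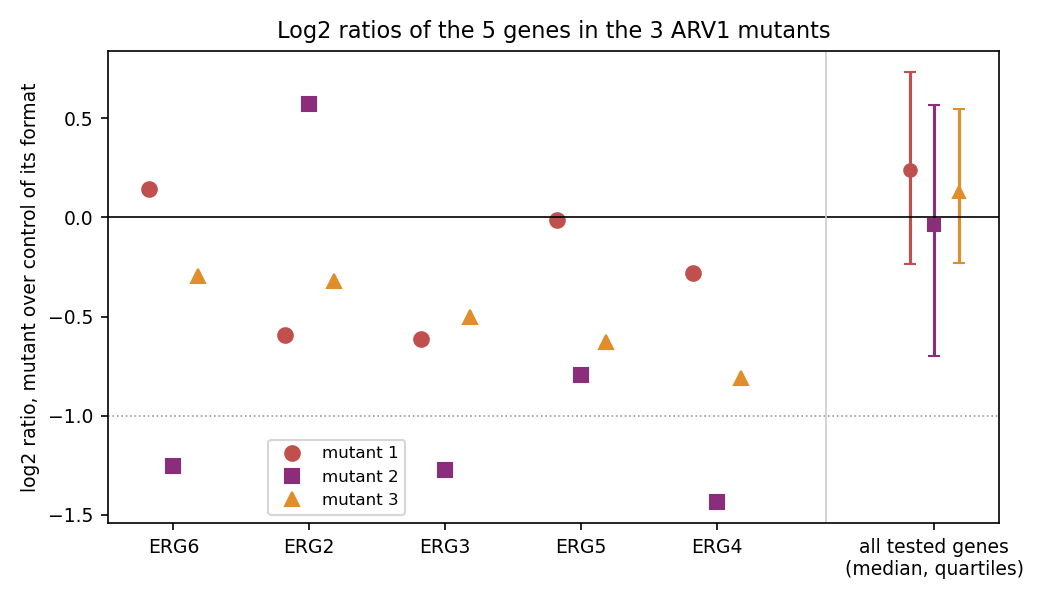
Log2 signal ratios of each gene in mutants 1 (circles), 2 (squares) and 3 (triangles) over the control of the same format, beside the median and quartiles of all 4287 tested genes. The dotted line marks a 2-fold lower signal, which ERG6, ERG3 and ERG4 pass in mutant 2 with -1.25, -1.27 and -1.43, while ERG2 is at 0.57 there.

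Mutants 1 and 2 shared the control, array format and labelled genotype but came from different isolates. The log2 ratio in mutant 2 minus that in mutant 1 was -1.40 for ERG6, -1.15 for ERG4, -0.78 for ERG5 and -0.66 for ERG3, and it was 1.17 for ERG2. Mutants 2 and 3, of the same strain SCY840 but on different formats with different controls, also differed. The ratio in mutant 2 minus that in mutant 3 was -0.954 for ERG6, -0.626 for ERG4, -0.162 for ERG5, -0.768 for ERG3 and 0.895 for ERG2. Differences between mutants 1 and 2 therefore cannot be assigned to the isolate. In a fit with an added term for the isolate, chosen after seeing the data, SCY820 minus SCY840 was 1.16 ± 0.76 for ERG6 (SE, limma adjusted p 0.738) and -0.94 ± 0.56 for ERG2 (adjusted p 0.691). For ERG4, ERG5 and ERG3 it was 0.99 ± 0.80, 0.74 ± 0.66 and 0.47 ± 0.68, with adjusted p of 0.839, 0.868 and 0.955. This test called 1.21% of all tested genes and none of the 5. In a fit with a term for format by genotype, the mutant change on S98 minus that on Ye6100 was smaller than its error for each gene. It ranged over -0.31 ± 1.33 for ERG2 and 0.44 ± 1.25 for ERG3, with a limma adjusted p of 1 for all 5. This term cannot be told apart from control strain or from isolate, since SCY2004 was on S98 only and SCY328 and SCY820 on Ye6100 only. Fits with an added term have fewer residual degrees of freedom than the main fit. The test of format by genotype called 0 genes (0%) and had 6 genes at an unadjusted p under 0.05.

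RNA integrity measures also separated mutant 2 from the other Ye6100 samples. Affymetrix arrays carry probe sets for the 5′ and 3′ ends of control transcripts, and a low ratio of the 5′ to the 3′ signal marks degraded or incompletely copied RNA. For actin (ACT1) this ratio was 0.763 in mutant 1 and 0.349 in mutant 2, against 0.774 in control 1/2 (geometric means of 4 chips). The mutant 2 chips ranged over 0.297 to 0.423, below the lowest chip of mutant 1 (0.491) and of control 1/2 (0.626). For SPT15 the ratio was 0.598 in mutant 1 and 0.37 in mutant 2, against 0.562 in control 1/2, and for SRB4 it was 0.398 and 0.187, against 0.686. On S98 the ACT1 ratio was 1.17 in mutant 3, against 1.15 in control 3, while SPT15 had 0.296 against 0.518 and SRB4 0.274 against 0.403. The part of RNA integrity in the members' lower signals was not tested. Without mutant 2 the fitted log2 changes were -0.56 for ERG3, -0.55 for ERG4, -0.46 for ERG2, -0.32 for ERG5 and -0.08 for ERG6, with limma adjusted p between 0.189 and 0.885.

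**Figure D3:**
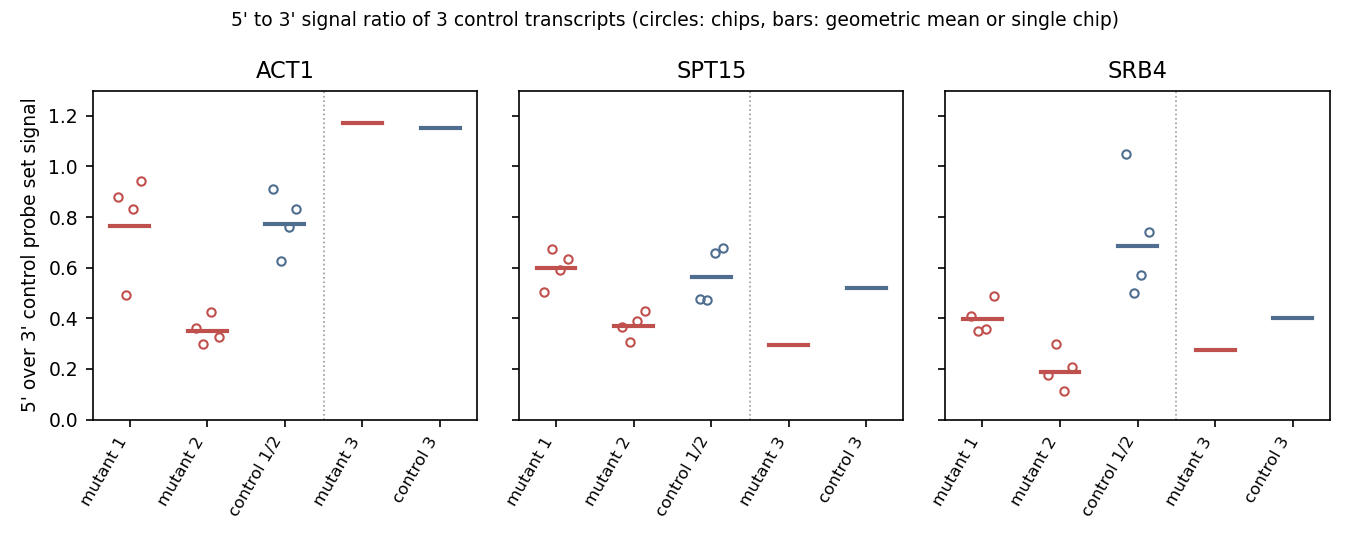
Ratio of the 5′ to the 3′ control probe set signal for ACT1, SPT15 and SRB4 in each RNA sample, with ARV1 mutants in red and controls in blue; circles are chips and bars their geometric mean, or the single S98 chip. Mutant 2 has the lowest ratio among the Ye6100 samples for each transcript, 0.349 for ACT1.

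The 7 yeast control probe sets present on all 4 chips of a Ye6100 sample give a measure of technical spread between chips. The pooled standard deviation of their log2 ratio was 0.28 in mutant 1 (0.17 to 0.44 over the probe sets) and 0.26 in mutant 2 (0.11 to 0.38). In mutant 1 the ratios of ERG6, ERG5 and ERG4 (0.14, -0.01 and -0.28) were no larger than the upper end of that range. This spread comes from control probe sets on chips of the same RNA and does not measure the spread between samples.

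The share of genes on either side of the control depended on the scaling. With each sample centred on its median, the median log2 ratio of all tested genes became -0.07, 0.07 and -0.12 for mutants 1, 2 and 3, and 21.9% of genes were lower and 18.6% higher in all 3 mutants. With quantile normalization within a format the shares were 19% and 22%. Under both scalings 4 of the 5 genes were lower in all 3 mutants. The added gene was ERG6, whose ratio in mutant 1 was 0.14 as reported, -0.16 with median centring and -0.02 with quantile normalization. ERG2 stayed higher in mutant 2 under each, at 0.57, 0.68 and 0.43. ERG5 in mutant 1 was at -0.32 with median centring and -0.31 with quantile normalization, and ERG4 in mutant 3 was at -1.06 with median centring, past the 2-fold threshold.

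**Figure D4:**
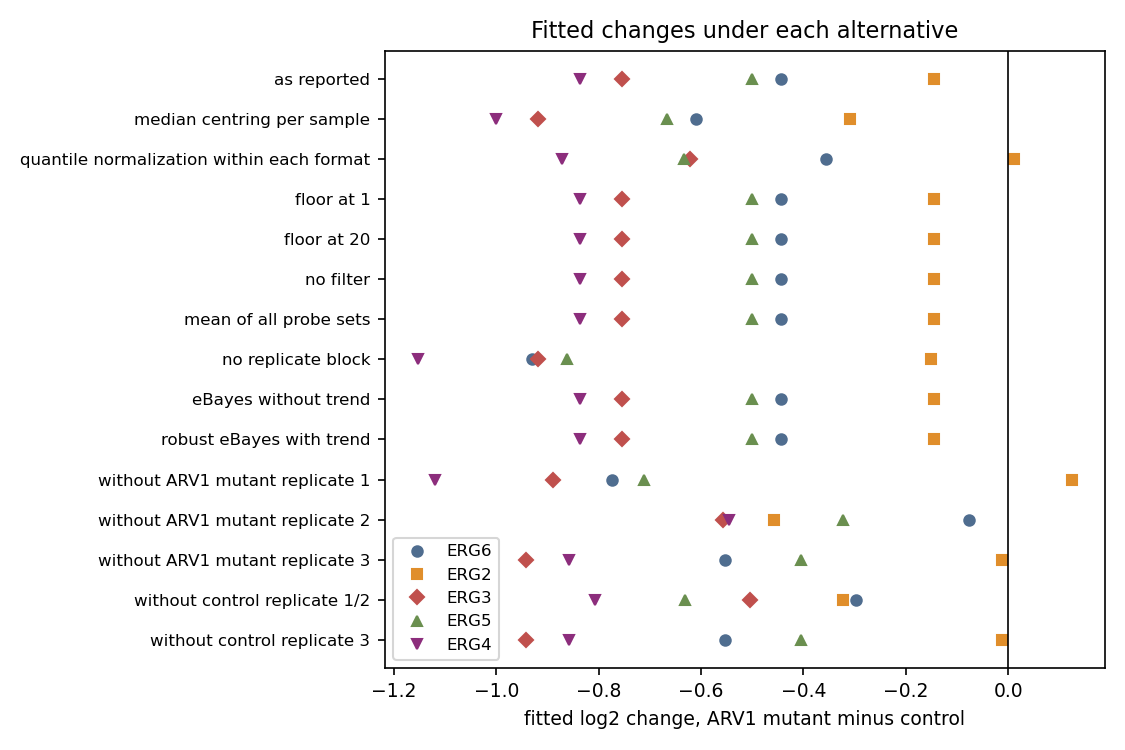
Fitted log2 change, ARV1 mutant minus control, of each gene as reported and under the 14 alternatives of processing or left-out samples. ERG6, ERG3, ERG5 and ERG4 are below 0 in each, with ERG4 between -1.15 and -0.54, and ERG2 lies on both sides of 0, between -0.46 and 0.13. Alternatives of the floor, the filter, the probe sets and eBayes could not move these values. The -1.15 of ERG4 is from the fit without the block, which mixes signals of formats that have no common scale.

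The earlier pathway genes give the setting of these values. Among the 9 genes of the mevalonate steps limma called 0, with 1 lower (MVD1) and 1 higher (HMG2) in all 3 mutants and a median fitted log2 change of -0.12. MVD1 counted as lower with 98.1% of the control signal in mutant 1 and 94.4% in mutant 3, which are no clear differences, and 46.1% in mutant 2. Among the 8 genes from squalene to zymosterol limma called 0, with 3 lower (ERG11, ERG24 and ERG25) and 1 higher (ERG27) in all 3 mutants and a median of -0.16. Lowest in that group were ERG24, a sterol reductase of the same protein family as ERG4, at -0.60 ± 0.35, and ERG25, a sterol methyl oxidase, at -0.57 ± 0.41 (SE, limma adjusted p 0.828 and 0.853). ERG11, the lanosterol demethylase that azole drugs inhibit, was at -0.26 ± 0.35 and was not lower in mutant 3 with quantile normalization, where its ratio was 0.11. ERG27, a sterol keto reductase, had 0.41 ± 0.38, and with median centring its ratio in mutant 1 was -0.08. Highest of the 22 pathway genes was HMG2, which encodes an HMG-CoA reductase, whose log2 ratios were 0.96, 1.05 and 0.85 (mutants 1, 2 and 3), with a fitted change of 0.94 ± 0.33 (limma adjusted p 0.707). Its paralogue HMG1 had -0.16 ± 0.41. Among the other mevalonate genes ERG10, the first thiolase, had 0.22 ± 0.40, ERG12, the mevalonate kinase, -0.46 ± 0.63 and ERG13, the HMG-CoA synthase, -0.39 ± 0.40. The directions of these genes were mixed. The ERG12 log2 ratios were 0.43, -1.52 and -0.35 in mutants 1, 2 and 3, that of mutant 3 from the brightest of 4 probe sets. ERG7, the lanosterol synthase, had 0.09 ± 0.35.

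In the order of the 22 fitted changes from the lowest, ERG4 was number 1, ERG3 number 2, ERG5 number 5, ERG6 number 7 and ERG2 number 13. The 5 genes therefore did not form a block of their own, since ERG24 and ERG25 lay between ERG3 and ERG5. Neighbours in that order differed by less than either standard error, as with ERG4 at -0.84 ± 0.47 and ERG3 at -0.75 ± 0.40, except for ERG27 and HMG2 at the upper end, which differed by more. The intervals of the 5 genes all included 0.

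**Figure D5:**
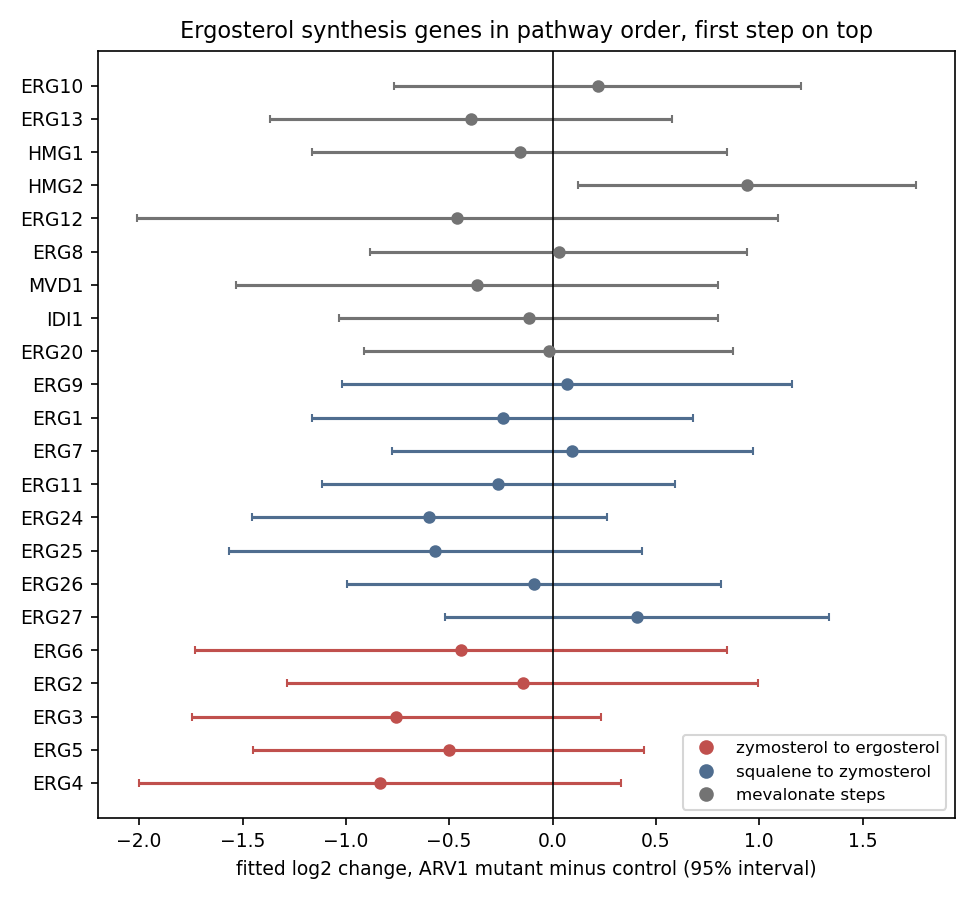
Fitted log2 change, ARV1 mutant minus control, with its 95% interval for 22 ergosterol synthesis genes in pathway order, the last 5 in red. HMG2 is highest at 0.94 and ERG4 lowest at -0.84, and the intervals of the 5 last genes all span 0.

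Partners of these enzymes were read in the same way, and limma called 0 of the 5 tested genes among helpers and electron donors. DAP1, a heme-binding protein that interacts with Erg5 and Erg11, had a signal of 2566 in mutant 1 and 1751 in mutant 2, against 574.4 in control 1/2, and 1130 in mutant 3, against 631.6 in control 3. It lay above the control in all 3 mutants and under all 3 scalings, with a fitted log2 change of 1.44 ± 0.44 (limma unadjusted p 0.0179, adjusted p 0.641). ERG28, a scaffold that holds sterol enzymes together, had -0.44 ± 0.42, CYB5, the cytochrome that passes electrons to sterol desaturases, -0.15 ± 0.53, and CBR1, the reductase of that cytochrome, 0.12 ± 0.46. The directions of ERG28, CYB5 and CBR1 were mixed over the mutants.

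Of the 6 transcription factor genes none was called, and none had the same direction in all 3 mutants as scaled here. UPC2 had signals of 51.2 in mutant 1 and 4.1 in mutant 2, against 27.4 in control 1/2, and 65.48 in mutant 3, against 31.75 in control 3. Mutant 2 was far under the filter value of 25.4, near the floor, so no ratio is given for it. ECM22 had a fitted change of 0.31 ± 0.47, with signals of 20.6 in mutant 2 and 23.7 in control 1/2 that were also under that value. ECM22 therefore passed the filter on Ye6100 through mutant 1 (47.6), and its fitted change is uncertain. The other named factors were TUP1, a general corepressor, with 0.10 ± 0.63, and ROX1, a repressor of hypoxic genes, with -0.46 ± 0.49. ROX1 was lower in all 3 mutants with median centring (-0.18, -1.10 and -0.61) and with quantile normalization. With quantile normalization the ECM22 ratios were 0.765, 0.088 and 0.015 in mutants 1, 2 and 3. Those of mutants 2 and 3 are no clear differences.

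Among 7 genes of sterol esters and sterol uptake 0 were called, with 3 higher and 1 lower in all 3 mutants and a median fitted change of 0.21. ARE1, a sterol acyltransferase, had 1.82 ± 0.48 (limma adjusted p 0.564) and AUS1, a sterol importer, 1.58 ± 0.46 (adjusted p 0.641). The AUS1 signal in control 1/2, 16.1, was under the filter value of 25.4, so the gene passed the filter through its mutant samples and its ratio on Ye6100 is uncertain. On S98 the log2 ratio of AUS1, 2.21, came from the brightest of 6 probe sets. A choice by brightness can favour a probe set that is high in the mutant, so the S98 ratio is uncertain too. The lowest pair was YEH2, a steryl ester hydrolase, with -0.16 ± 0.40, and PDR11, also an importer, with 0.06 ± 0.78. YEH2 was the gene lower in all 3 mutants, with 98.1%, 69.7% and 99.2% of the control signal in mutants 1, 2 and 3. The PDR11 signal in mutant 2, 11.9, was under the filter value. The fitted changes of ARE1, DAP1 and HMG2 lay on the other side of 0 from the members' fitted changes, and none passed the test. Each was the highest gene of its list and does not stand for the list. The median fitted change was -0.116 for the mevalonate steps and -0.131 for helpers and electron donors, against 0.21 for sterol esters and uptake.

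Outside the 5 members, the tested genes whose 3 log2 ratios lay nearest to those of each member were found by Euclidean distance over mutants 1, 2 and 3. They were ROX1 (distance 0.07) and RTF1 (0.11) for ERG6, RPL6A (0.08) and RTT10 (0.08) for ERG2, BUD9 (0.06) and SMB1 (0.09) for ERG3, HEK2 (0.08) and SPO12 (0.08) for ERG5, and ILV1 (0.18) and LSB6 (0.22) for ERG4. Members were left out of this search, so none could be among these pairs. RPL6A has a near-identical paralogue, RPL6B, so its signal may include both. Within the 5 genes ERG3 and ERG4 were nearest to each other (0.47), followed by ERG6 and ERG5 (0.59), and ERG2 lay 1.51 to 2.09 from the rest. With 3 ratios a gene, and mutants 1 and 2 sharing a control, such distances are a description of these samples.

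The ARV1 transcript was low in each sample labelled as a mutant. ARV1 (YLR242C) had a signal of 1 in mutant 1 and 2.2 in mutant 2, both under the floor of 2.4, against 33.4 in control 1/2, and 6.79 in mutant 3, against 51.83 in control 3. All 3 mutant signals lay far under the filter values of the formats (25.4 on Ye6100 and 28.1 on S98), so no fold is given. ARV1 was under the signal filter, and in a fit of all 5315 genes its limma adjusted p was 0.326. As markers of mating type, all 6 a-cell genes passed the filter. The 4 alpha-cell genes did not, through their Ye6100 signals, while on S98 they had 19.38 to 76.51 in mutant 3, against 36.63 to 45.68 in control 3. Of those 6 a-cell genes 3 were lower in all 3 mutants (MFA2, STE2 and AGA2), none of them called, with a median fitted change of -0.41. Among 4 genes of the unfolded protein response, 3 were higher in all 3 mutants, the median fitted change was 2.26, and limma called none, with a lowest adjusted p of 0.125 for ULI1. SIL1 and ERO1 were the others that were higher in all 3, while KAR2 had log2 ratios of 0.66, 0.90 and -0.45.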

How the data were processed

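The deposited values are intensities, 1 linear MAS5 signal per probe set, per the submitters' processing notes. Neither the software version nor the target of scaling was stated, and with the build not given in the sources used here no coordinates are printed. The 4 chips of a Ye6100 sample are joined in 1 column, per the file headers, and counted as 1 sample. Samples whose 2% trimmed means differed by over 10% within a format were scaled to a common mean (factor 1.41 for mutant 3 and 0.707 for control 3). Signals under the 5th percentile (2.4 for Ye6100, 1.98 for S98) were set to that floor before log2. Ye6100 probe sets were named through locus tags of assembly R64 (5837 of 6593 matched), and S98 probe sets through platform symbols (6504 of 9335 had a single symbol). Genes were tested when the brightest probe set, by its mean signal over the samples of a format, exceeded the 25th percentile of such means in both tables (25.4 and 28.1).

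limma (3.58.1, R 4.3.3) was fitted to 4287 genes with genotype and array format as the replicate block, using eBayes with trend, Benjamini-Hochberg adjustment and 2 residual degrees of freedom. The format is the split that the replicate numbers in the labels follow, and the control that each mutant was compared with per the series design. The scripts were tested on simulated data. Other settings of the scaling, the floor, the filter, the choice of probe set, the block, the trend and the fold threshold were tried, as was leaving out each sample, and terms for isolate and for format by genotype were added after seeing the data. Named besides the 5 genes and ARV1 are the 2 highest and 2 lowest genes of each sterol gene list, HMG1, HMG2, ERG11, ERG24, UPC2, ECM22 and the 2 nearest genes to each member. MVD1, ERG27, a-cell genes and genes of the unfolded protein response are also named, as markers or where they make up a small count. Members and lists were chosen with earlier results of these data known. Plots were made in Python 3.11.15 with matplotlib 3.10.9. The number of arrays limits the precision.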

Additional observations from a re-analysis of the deposited data

Results flagged for a closer look

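ERG6 had opposite signs in the isolates, with the SCY820 sample above its control and both SCY840 samples below theirs. The SCY840 samples themselves differed, with log2 ratios of -1.25 in mutant 2 and -0.298 in mutant 3. Mutant 2 also had the lowest 5′ to 3′ ratios among the Ye6100 samples, 0.349 for ACT1. The part of RNA integrity in the ERG6 ratios was not tested. The log2 difference, SCY820 minus SCY840, came to 1.16 ± 0.76 (SE) and did not pass the test (limma adjusted p 0.738). SCY820 is represented by 1 sample, and its ERG6 ratio of 0.14 turned to -0.16 under median centring and to -0.02 under quantile normalization.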

How the results depend on the processing

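limma called 0 of the 5 genes under each of the 14 alternatives. ERG6, ERG3, ERG5 and ERG4 kept a negative fitted change in all 14, and ERG2 in 12. The ERG2 exceptions were 0.012 with quantile normalization and 0.125 without mutant 1. Its lowest value with a sample left out was -0.458, without mutant 2. Alternatives of the floor, the filter, the probe sets and eBayes could not move these fitted changes and returned the reported values. Leaving out mutant 3 or control 3 gave the same change for each gene. The 14 are therefore fewer separate checks of the sign than their number. The count of all genes called was 1 with quantile normalization and ranged from 0 to 669 when 1 sample was left out, with 669 without mutant 2 and 30 without mutant 1; the cause was not tested. With no replicate block the median of the 5 genes was -0.918 and no gene was called. That fit mixes signals of the formats, which have no common scale, and mutants and controls are split unequally over them. Its median is therefore no measure of a larger mutant change. At 1.5-fold, 2 members were lower in mutant 1, 4 in mutant 2 and 2 in mutant 3. With median centring 1 member (ERG4) was 2-fold lower in mutant 3. The share of all tested genes at these settings was not computed, so these member counts have no background beside them. Members lower in all remaining mutants numbered 3 to 5 with a sample left out, 5 being without control 1/2, where mutant 3 alone is compared. The share of all tested genes was not computed for these smaller sets, and the 14.6% for all 3 mutants is no background for them. Earlier pathway genes higher in all 3 mutants numbered 1 with median centring, since ERG27 changed sign, and those lower in all 3 numbered 6 with median centring and 3 with quantile normalization, against 4 as reported. Alternatives for the floor, the filter, the probe sets and the trend changed none of these counts. With 2 residual degrees of freedom, a missed threshold does not show equal levels, and signals listed at 0 or near the floor carry no order.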
